A study of Homo sapiens with 6 samples.

Results

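The ZNF zinc finger genes called expressed by a level minimum were studied with and without knockdown of CNOT3 in A549. This is an established line from a human lung adenocarcinoma. A gene was a member when its symbol was ZNF followed by digits only and its brightest probe set annotated with a single gene had a mean log2(intensity + 1) of at least 6 over all 6 arrays. Of 425 such symbols on the array, 293 were members and 132 were too dim, out of 12569 genes of any kind that reached the same level and 19775 genes in all. The members were therefore chosen by their level averaged over every array, and their level is given here only as a description. The change with doxycycline (DOX) did not enter the rule, but the members were chosen with earlier results of these data known.

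All arrays came from stable A549 lines made with a lentiviral vector, each carrying a hairpin under tetracycline control. The shCNOT3-1 and shCNOT3-2 lines, with 2 different hairpins against CNOT3, were given DOX at 1 ug/ml for 72 hours and were set against the same lines grown without DOX. The control line shNTC, with a non-targeting hairpin, was grown with and without DOX in the same way. Each line and DOX state had 1 array, nothing in the labels says whether a line was 1 clone, and no repeat cultures are described. The spread behind each p-value is therefore that between single arrays, drawn in part toward that of other genes, and may be technical.

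Most ZNF proteins hold tandem fingers in which pairs of cysteines and histidines grip a zinc ion and which together read a stretch of DNA. Many also carry a KRAB box, which recruits the corepressor TRIM28 and, through it, the histone methyltransferase SETDB1, and these are best known for silencing transposable elements. The genes multiplied by tandem duplication and stand in clusters, above all on chromosome 19, and their mRNAs are typically scarce and short-lived. CNOT3 is a subunit of CCR4-NOT, the complex that removes poly(A) tails and so starts the decay of most mRNAs.

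CNOT3 read 81.9 with DOX in shCNOT3-1 and 46.9 in shCNOT3-2, against 227 and 228 without DOX, and in shNTC 166 with and 178 without. In this brightest probe set the knockdown lines with DOX lay below all other arrays, though the mean log2 change of -1.86 had an adjusted p of 0.0663 in limma. A second, dimmer CNOT3 set read 28.4 and 41.1 with DOX in shCNOT3-1 and shCNOT3-2, against 127 and 195 without, and in shNTC 95.6 with and 259 without, so that shNTC, too, was lower with DOX in that set. All 10 epithelial and A549 markers reached the level minimum (intensities from 132 to 54270), and of 10 markers of other cell types 4 did (PECAM1, COL1A1, DES and HBB), with a highest intensity of 553. The 3' to 5' ratio of ACTB, a sign of RNA integrity, was 1.42 and 1.45 with DOX in shCNOT3-1 and shCNOT3-2, against 1.33 and 1.36 without, and 1.47 with against 1.58 without DOX in shNTC. The ACTB ratio was thus higher with DOX in both knockdown lines, and its part in the results below was not tested. The same ratio of GAPDH was 1.03 and 1.05 with DOX, against 0.980 and 1.09 without, higher in one line and lower in the other, and in shNTC 0.966 with and 0.980 without.

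With DOX, the ZNF genes as a group lay lower in both knockdown lines and not in the control line. The median log2 change of the 293 members was -0.09 in shCNOT3-1 and -0.24 in shCNOT3-2, against 0.05 in shNTC. Over all 12569 genes the medians were 0.05, 0.02 and -0.01. In shCNOT3-1 the interquartile range of the members ran from -0.45 to 0.15, and in shCNOT3-2 from -0.63 to 0.08, so that most members shifted by less than 2-fold. In shNTC it ran from -0.23 to 0.28. The arrays hold RNA of whole cultures, in which fewer cells expressing a gene and less of its RNA per cell cannot be told apart.

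Counted by gene, 134 members were below 0 in both shCNOT3 lines, 46 above 0 in both and 113 split. Among all genes tested 26.9% were below 0 in both and 33.2% above 0 in both, so the members' shares of 45.7% and 15.7% stood in the opposite order. Of the 134 members, 77 were above 0 in shNTC and 57 below. Both knockdown arrays with DOX lay below the 4 other arrays for 86 members (29.4%, against 12.8% of all genes), and above them for 20 (6.83%, against 16% of all genes).

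**Figure D1:**
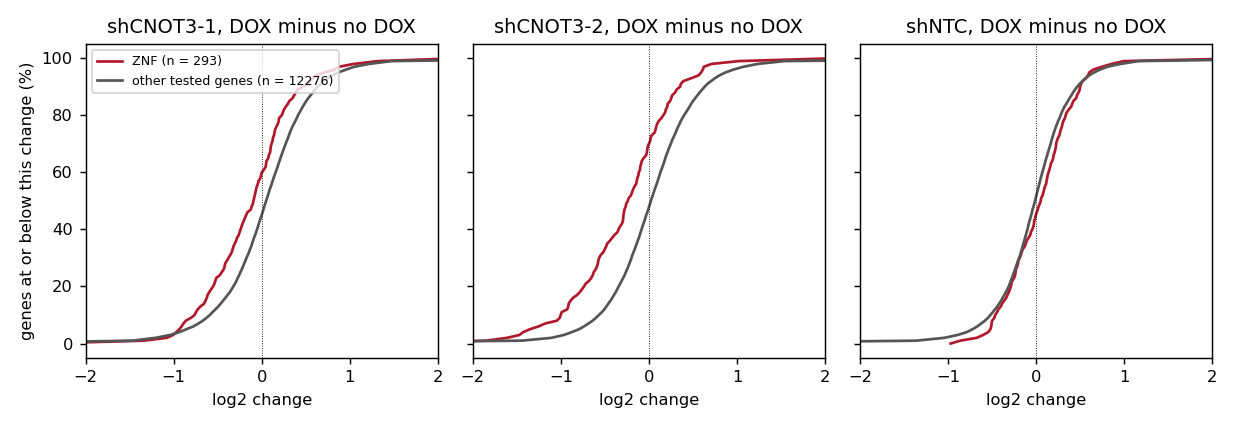
Cumulative share of genes (y axis, percent) by log2 change, DOX minus no DOX (x axis), in each line, for the 293 ZNF genes (red) and the 12276 other tested genes (grey). The red curve lies to the left of the grey one in shCNOT3-1 (60.1% of members below 0, against 45.1%) and more so in shCNOT3-2 (70.0% against 47.7%), while in shNTC it lies at or to the right of it over most of its length (45.4% against 51.4%).

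No single ZNF gene passed a false discovery threshold of 0.05 in limma, where 0.151% of all genes were called lower and 0.143% higher. At an unadjusted p under 0.05 there were 46 members lower and 7 higher, against 7.1% and 7.5% of all genes. As shares of the members these were 15.7% and 2.39%. All 46 were below 0 in both hairpins, with mean log2 changes from -1.43 to -0.45, and for 40 of them both knockdown arrays with DOX lay below every other array. The 46 were picked by their fall on these same arrays, so both counts follow in large part from the choice. The count depended on shCNOT3-2: without that line it was 13 members, or 4.44%, where all genes gave 5.51%, and without shCNOT3-1 it was 44, or 15.0%, where all genes gave 5.49%.

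The change beyond that of shNTC, tested in a second limma model, gave a median of -0.23 over the members and 0.05 over all genes. None of the members passed, nor did any other gene, and the lowest adjusted p among members was 0.284. At an unadjusted p under 0.05 in that model, 16 of the 293 members were lower and 1 was higher, against 494 (3.93%) and 566 (4.5%) of all 12569 genes.

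The same order appeared when arrays of different lines were set against each other. With DOX, the median member differed from shNTC by -0.23 in shCNOT3-1 and -0.31 in shCNOT3-2 on the log2 scale. Of the 293 members, 193 and 217 lay below shNTC (65.9% and 74.1%, against 46.9% and 49.8% of all genes). The median of all genes differed by 0.039 and 0.0042. Without DOX, the median member differed from shNTC by -0.061 and -0.0071, and the median of all genes by -0.030 and -0.035. Members thus lay slightly below all genes in shCNOT3-1 and slightly above them in shCNOT3-2. The median intensity of the members was 256 and 232 with DOX in shCNOT3-1 and shCNOT3-2, against 289 and 287 without, and in shNTC it was 322 with and 301 without DOX. The knockdown arrays with DOX were thus the lowest of the 6, and shNTC with DOX the highest.

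The members lowest in both hairpins were led by ZNF605, ZNF670 and ZNF107. ZNF605 had an intensity of 159 and 134 with DOX in shCNOT3-1 and shCNOT3-2, against 335 and 275 without, and of 240 with and 339 without DOX in shNTC. The knockdown arrays with DOX were the lowest, but shNTC also gave a log2 change of -0.50. Its mean change in the knockdown lines was -1.05 ± 0.025 (SD, n = 2), with an adjusted p of 0.150 in limma, and it was the only member at least 2-fold lower in both, where 0.477% of all genes were. No member was at least 2-fold higher in both, where 0.764% of all genes were.

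ZNF670 read 140 and 136 with DOX in shCNOT3-1 and shCNOT3-2, against 275 and 328 without, and in shNTC 205 with and 206 without. The groups did not overlap, and shNTC hardly differed between its arrays. The mean log2 change was -1.12 ± 0.21 (SD, n = 2; adjusted p = 0.126 in limma). ZNF107 read 134 and 107 against 259 and 278, and in shNTC 227 with and 181 without DOX. Its mean of -1.16 ± 0.29 rests on a probe set with the _x_at ending, which can bind other transcripts, and a second ZNF107 probe set gave 1.78 and 0.56 in the hairpins, the opposite direction.

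ZNF629 had the lowest p of all members. It read 363 and 304 with DOX in shCNOT3-1 and shCNOT3-2, against 687 and 609 without, and in shNTC 695 with and 622 without. The 2 knockdown arrays with DOX stood well apart from the other 4, which lay between 609 and 695. The mean log2 change was -0.96 ± 0.060 (SD, n = 2), with an adjusted p of 0.0936 in limma.

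ZNF180 read 398 and 419 with DOX in shCNOT3-1 and shCNOT3-2, against 755 and 715 without, and in shNTC 764 with and 655 without. The groups did not overlap here either, and a dimmer second probe set gave -0.42 and -0.68. ZNF3 read 403 and 310 against 683 and 788, but shNTC read 565 with DOX and 380 without, the second value within the range of the knockdown arrays. ZNF467 read 137 and 139 against 254 and 257, and in shNTC 537 with and 292 without, so that it was lower with DOX in both knockdown lines and higher with DOX in the control line, by 0.88 on the log2 scale.

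The other members of the lowest 12 were ZNF551, ZNF658, ZNF566, ZNF782 and ZNF264. Mean log2 changes of the 12 lay between -1.16 and -0.84 and adjusted p in limma between 0.0936 and 0.325. For 11 of the 12, all but ZNF3, the knockdown arrays with DOX were below every other array, which follows in large part from how the 12 were picked. In shNTC the 12 ranged from -0.50 to 0.88, with 8 of them above 0. Second probe sets existed at the level minimum for ZNF551, with -0.74 and -0.28, and for ZNF264, with 0.01 and -0.08, where the brighter one had given -0.76 and -1.24.

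**Figure D2:**
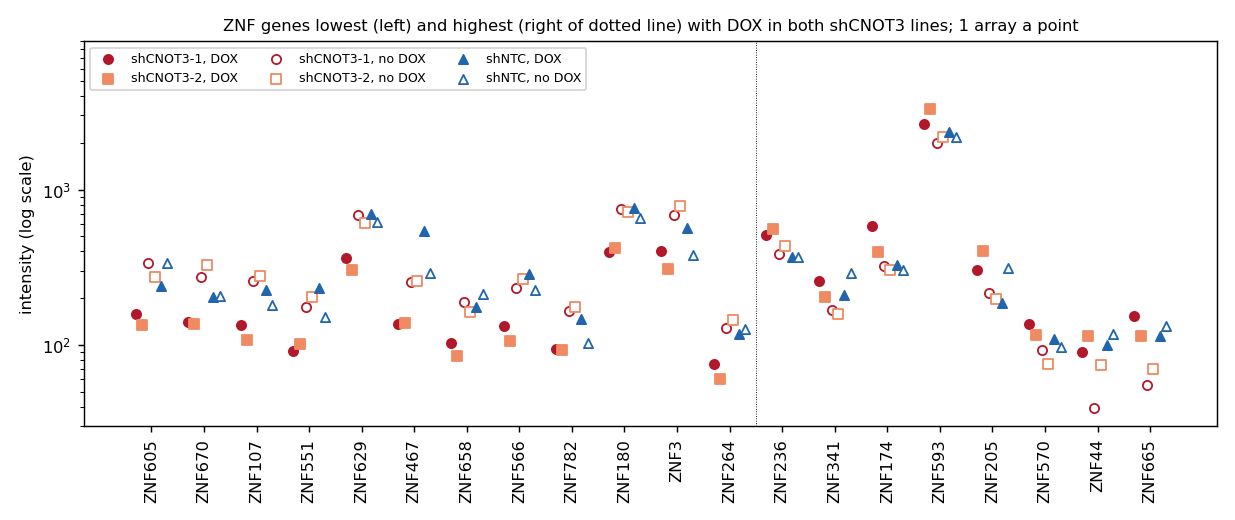
Intensity (y axis, log scale) of the 12 ZNF genes lowest and the 8 highest by the smaller of their changes in the 2 shCNOT3 lines, 1 point per array, filled with DOX and open without it. On the left the filled red and orange points lie below the open ones and, for all but ZNF3, below both blue shNTC points, while on the right they lie above the open ones but for 4 of the 8 not above both shNTC points.

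Promoters of 4 of these lowest 12 genes are printed, and only where the first listed start was also the outermost one. Of the 4, 3 hold the letters CCGGAAG, found in a larger share of ZNF genes than of all tested genes. ZNF605, the lowest, holds CCAAT but not these. Other members of the lowest 12 are not printed and the letters were not counted over the 12, so the 4 give no share for them. They are the 250 bases before the outermost start in RefSeq on GRCh38.p14, each on its gene's strand: ZNF107 at chr7:64665883-64666132 (plus strand), ZNF180 at chr19:44500523-44500772 (minus strand), ZNF264 at chr19:57191250-57191499 (plus strand) and ZNF605 at chr12:132956307-132956556 (minus strand). Capitals mark matches, on either strand, to CCGGAAG (letters favoured by ETS factors), to the GC box GGGCGG, to CCAAT and to TATAAA.
ZNF107: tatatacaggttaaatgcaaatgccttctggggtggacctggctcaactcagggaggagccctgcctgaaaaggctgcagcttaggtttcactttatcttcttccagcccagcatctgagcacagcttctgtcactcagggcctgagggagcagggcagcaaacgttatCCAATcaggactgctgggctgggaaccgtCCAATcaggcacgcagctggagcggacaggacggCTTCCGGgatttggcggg
ZNF180: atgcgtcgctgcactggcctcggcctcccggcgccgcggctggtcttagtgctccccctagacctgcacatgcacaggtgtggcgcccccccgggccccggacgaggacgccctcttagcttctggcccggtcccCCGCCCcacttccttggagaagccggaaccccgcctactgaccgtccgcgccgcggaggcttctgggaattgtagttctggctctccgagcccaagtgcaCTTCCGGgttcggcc
ZNF264: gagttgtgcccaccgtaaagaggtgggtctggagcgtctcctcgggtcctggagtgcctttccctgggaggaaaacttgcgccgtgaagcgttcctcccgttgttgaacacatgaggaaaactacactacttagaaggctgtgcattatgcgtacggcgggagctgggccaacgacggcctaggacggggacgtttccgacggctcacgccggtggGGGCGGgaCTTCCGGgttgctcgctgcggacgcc
ZNF605: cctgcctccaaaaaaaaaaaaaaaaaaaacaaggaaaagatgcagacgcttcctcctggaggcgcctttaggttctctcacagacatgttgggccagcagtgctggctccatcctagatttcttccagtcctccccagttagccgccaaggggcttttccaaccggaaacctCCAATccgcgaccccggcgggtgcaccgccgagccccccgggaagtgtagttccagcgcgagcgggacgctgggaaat

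The ETS letters stood in this window in 79 of 256 ZNF genes with a promoter in the table (30.9%), against 15.7% of 10265 tested genes and 8.82% of all 27305 genes of the table. The letters CCAAT were found in 43.0%, against 34.7% of tested genes, the GC box in 59.8% against 66.4%, and TATAAA in 2.73% against 5.47%. The median count of CpG pairs was 19 for ZNF genes and 21 for tested genes. Among the 121 matched members below 0 in both shCNOT3 lines, 35.5% held the ETS letters, and among the 135 others 26.7%. One start per gene was used, the first one listed, and a match of letters does not show that a factor binds there.

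Few members were higher in both knockdown lines. ZNF593, which encodes a small nuclear zinc finger protein, read 2637 and 3300 with DOX in shCNOT3-1 and shCNOT3-2, against 2007 and 2173 without, and in shNTC 2366 with and 2177 without. The knockdown arrays with DOX were the highest, and the mean log2 change was 0.50 ± 0.15 (SD, n = 2; adjusted p = 0.255 in limma). ZNF174, a factor with a SCAN box through which such proteins pair, read 581 and 396 against 320 and 305, and in shNTC 329 with and 303 without. Again the groups did not overlap, but the hairpins differed in size, at 0.86 and 0.37, and a second probe set of similar brightness gave only 0.14 and 0.13.

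The highest by log2 change were ZNF665 (1.47 and 0.70 in the hairpins) and ZNF44 (1.17 and 0.61). Both are dim and read from _x_at probe sets. ZNF665 read 154 and 114 with DOX in shCNOT3-1 and shCNOT3-2, against 54.9 and 69.5 without, while shNTC read 114 with and 132 without DOX. ZNF44 read 90.1 and 114 against 39.4 and 74.2, with 100 and 118 in shNTC. For both genes the knockdown lines with DOX therefore matched the level of the control line, and the arrays that stood apart were those of the knockdown lines without DOX. The same held for ZNF341 (256 and 204 against 169 and 158, with 209 and 290 in shNTC). The remaining 3 of the highest 8 were ZNF205 (0.48 and 1.02), ZNF570 (0.56 and 0.61, but -0.97 and -0.07 from another probe set) and ZNF236 (0.40 and 0.36, but 0.15 and -0.22 from another). Adjusted p of the 8 lay between 0.255 and 0.533 in limma.

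A set of 12 members was picked for described roles after values were seen, so its counts stand only as a description. Of the 12, 7 were below 0 in both hairpins, 0 above 0 in both, and 10 had a mean change below 0. ZNF143, an activator of many housekeeping and small nuclear RNA genes, read 976 and 1143 with DOX in shCNOT3-1 and shCNOT3-2, against 1026 and 1007 without, and in shNTC 1008 with and 1128 without, so that the groups overlapped. ZNF207, also known as BuGZ, a spindle protein that binds the checkpoint protein BUB3, read 6842 and 7473 against 7438 and 7529, and 6909 and 8022 in shNTC. ZNF217, a transcription factor amplified in breast cancer, read 3912 and 3139 against 3708 and 3785, with 3407 and 3560 in shNTC. In these probe sets the knockdown arrays with DOX did not stand apart. A second ZNF207 set of nearly the same brightness, an _x_at set, gave -0.51 and -0.40 in the hairpins and -0.32 in shNTC.

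ZNF281, which binds GC-rich promoters and is linked to pluripotency, read 3400 and 2512 with DOX in shCNOT3-1 and shCNOT3-2, against 3733 and 3737 without, and in shNTC 4707 with and 3330 without. The groups overlapped, and other probe sets gave 0.15 and -0.32, and 0.0027 and -0.79. In the brightest set the change beyond shNTC was -0.85 (unadjusted p = 0.0289, adjusted p = 0.538 in limma). ZNF148, a GC-box binding factor, read 401 in shCNOT3-1 with DOX but 902 in shCNOT3-2, against 867 and 905 without and 952 and 928 in shNTC, so that in this probe set 1 array alone was low. Its 5 other probe sets at the level minimum were below 0 in both hairpins, from -1.19 to -0.28 in shCNOT3-1 and from -0.47 to -0.040 in shCNOT3-2. For ZNF24, a SCAN-box protein, it was the other hairpin: 1303 and 660 with DOX, against 1212 and 1148 without, and 1475 and 1256 in shNTC. One other ZNF24 set gave 0.087 and -0.94 and another -0.014 and 0.027. ZNF598, a ubiquitin ligase that marks collided ribosomes, read 779 and 518 against 416 and 524, with 643 and 635 in shNTC, while a dim _x_at set gave -0.20 and -0.70. None of these 4 genes passed in limma.

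The brightest members were ZNF706, ZNF207, ZNF664, ZNF146 and ZNF217. ZNF664 read 4556 and 2779 with DOX in shCNOT3-1 and shCNOT3-2, against 5265 and 4659 without, and 7844 with and 6854 without in shNTC. Its knockdown arrays were the lowest, but the lines also differed without DOX (mean log2 change -0.48, adjusted p = 0.277 in limma), and a dimmer set gave -0.052, -0.42 and, in shNTC, -0.77. ZNF146, which consists almost wholly of fingers, gave -0.24 and -0.66 in the hairpins, 0.11 in shNTC and, in a second probe set, -0.35, -0.38 and -0.33. ZNF706 was higher, at 9654 and 8398 against 7569 and 6705, with 8236 and 7775 in shNTC (0.34, adjusted p = 0.312 in limma), and a dimmer set gave 0.23 and -0.035.

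The hairpins did not always go together. Across the 293 members, which share probes of similar sequence and are not independent, the changes in the 2 lines correlated at Pearson r = 0.20 and Spearman rho = 0.31, and over all tested genes at 0.27 and 0.28. The members with the most opposite changes were ZNF416 (1.03 in shCNOT3-1 and -2.13 in shCNOT3-2), ZNF408 (1.11 and -1.75), ZNF358 (1.69 and -0.74) and ZNF653 (0.87 and -0.73). In shCNOT3-2 the change was below that in shCNOT3-1 for 179 members (61.1%, against 52.3% of all genes). At least 2-fold lower were 10 members in shCNOT3-1 and 30 in shCNOT3-2, against 0 in shNTC, where the shares over all genes were 3.39%, 2.84% and 2.12%. At least 2-fold higher were 8, 5 and 3, against 3.39%, 3.53% and 1.76%. At -0.5 or lower were 68 members in shCNOT3-1 and 97 in shCNOT3-2, against 24 in shNTC, where all genes gave 13%, 12.7% and 10.6%. The members' 23rd percentile in shCNOT3-1 was -0.52 and their 33rd in shCNOT3-2 was -0.50. At 0.5 or higher were 27, 21 and 29, against 15.1%, 14.9% and 8.82%. Both shCNOT3 lines together had 39 members at -0.5 or lower and 3 at 0.5 or higher, against 3.93% and 4.57% of all genes.

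**Figure D3:**
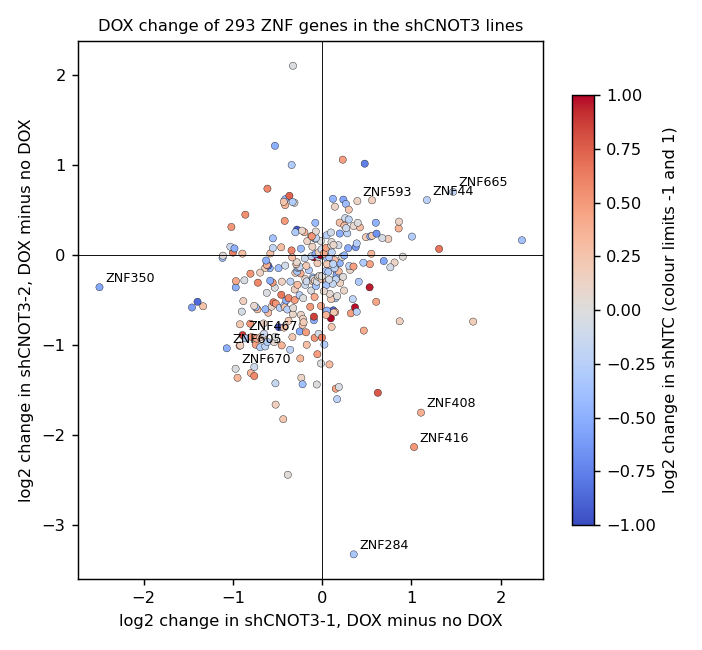
Log2 change with DOX of each of the 293 ZNF genes in shCNOT3-1 (x axis) and shCNOT3-2 (y axis), coloured by its change in shNTC. The lower left quadrant holds 134 genes and the upper right 46, and blue and red points are mixed in both.

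In the control line the members' changes bore little relation to those under knockdown. Over the members, r with shNTC was -0.01 for shCNOT3-1 and -0.14 for shCNOT3-2. Of members below 0 in shNTC 42.9% were below 0 in both hairpins, and of those above 0 in shNTC 48.1%. ZNF579 had the largest change in shNTC, at 247 with and 45.4 without DOX, while all arrays of the shCNOT3 lines lay between 209 and 235, so that the shNTC array without DOX was the one that stood apart. ZNF304 (1.16), ZNF316 (1.10) and ZNF524 (0.98) followed. The lowest in shNTC were ZNF789 (-0.97), ZNF446 (-0.93), ZNF490 (-0.87) and ZNF630 (-0.86).

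The shift was seen at every level. ZNF genes are dim, with a median of 8.11 for the mean log2 intensity, or 276, against 9.44, or 692, for all tested genes. From the dimmest to the brightest class, at 6 to 7, 7 to 8, 8 to 9, and 9 or more, the median change in shCNOT3-1 was -0.29, -0.09, -0.10 and -0.05. In shCNOT3-2 it was -0.31, -0.30, -0.14 and -0.24. In other tested genes of the same classes the medians lay between 0.04 and 0.09 in shCNOT3-1 and between 0.00 and 0.14 in shCNOT3-2. The share below 0 in both hairpins was 46.2%, 46.3%, 41.7% and 49.3% over the 4 classes, against 21.7%, 22.4%, 24.8% and 28.9% of the other genes.

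**Figure D4:**
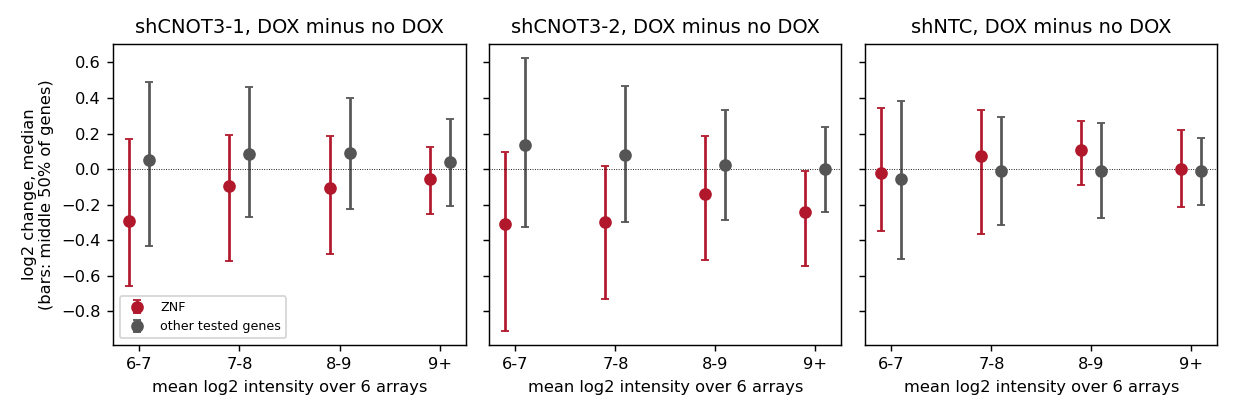
Median log2 change with DOX (points) and interquartile range (bars) in each line, by class of mean log2 intensity, for ZNF genes (red) and other tested genes (grey). The red points lie below the grey ones in all 4 classes in both shCNOT3 lines; in shNTC they lie above them, between -0.021 and 0.11.

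At the edge of the rule, the members just inside were ZNF311, ZNF117 and ZNF850, with mean log2 intensities of 6.02, 6.02 and 6.04. Just outside were ZNF616, ZNF527 and ZNF391, all at 5.98. Changes in shCNOT3-1 and shCNOT3-2 were 0.14 and -0.05 for ZNF311, 0.16 and -0.19 for ZNF117, -1.46 and -0.58 for ZNF850, -0.51 and -0.84 for ZNF616, -1.79 and 2.01 for ZNF527, and -1.04 and -0.51 for ZNF391. Values of genes this dim differed widely between the hairpins.

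By kind of probe set, 213 members were read from sets with the plain _at ending, 48 from _s_at, 29 from _x_at and 3 from _a_at. The last 3 kinds can bind several transcripts, of 1 gene or of a family. In plain sets the medians were -0.10 and -0.26 in the hairpins, with 104 members below 0 in both and 32 above. These are 48.8% and 15.0%, against 27.6% and 32.8% of other genes read from plain sets. In _s_at sets the medians were -0.12 and -0.12 (22 below and 6 above, or 45.8% and 12.5%, against 24.1% and 36.4% of other genes). In _x_at sets they were 0.08 and -0.20 (8 below and 7 above, or 27.6% and 24.1%, against 27.7% and 29.9%). The share below 0 in both was thus near that of other genes in _x_at sets, where 10 of the 29 members were below 0 in shCNOT3-1. The 3 _a_at sets gave 0.24 and 0.02.

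A further 169 probe sets at the level minimum belonged to 123 of the members and served as second readings from the same arrays. Their medians were -0.18 in shCNOT3-1 and -0.18 in shCNOT3-2, against 0.05 in shNTC, and 70 were below 0 in both hairpins (41.4%) and 36 above (21.3%). For 10290 such probe sets of other genes the medians were -0.04, -0.03 and 0.02, with 32.0% below and 26.7% above. The mean hairpin change had the sign of the brightest probe set in 121 of the 169 (71.6%), against 64.4% in other genes. Where the brightest set was below 0 in both hairpins, 53 of 93 second readings were too (57.0%), and 13 were above 0 in both. For other genes 1561 of 3147 were too (49.6%), and 445 were above 0 in both. Examples with like values were ZNF678 (-0.72 and -1.30, the brightest -0.90 and -0.63) and ZNF704 (-0.97 and -1.04, the brightest -0.73 and -0.93).

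On chromosome 19 lay 118 of the members. Their medians were -0.21 and -0.30 in shCNOT3-1 and shCNOT3-2 and 0.08 in shNTC, and those of the 175 members on other chromosomes were -0.09, -0.17 and 0.03. Other tested genes on chromosome 19 gave 0.12, 0.017 and -0.065. In both places more members were below 0 in both hairpins than above, 56 and 19 on chromosome 19 and 78 and 27 elsewhere. The 24 members on chromosome 16 had medians of 0.08 and -0.06, with 7 below and 6 above in both.

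Runs of neighbouring zinc finger genes, with no other protein-coding gene between them in the RefSeq gene table, were then described where they held at least 5 members. Of 8 such runs, the one from ZNF605 to ZNF268 on chromosome 12 had all 6 members below 0 in both hairpins: ZNF605, ZNF26, ZNF84, ZNF140, ZNF891 and ZNF268. Its medians were -0.43 and -0.51 in shCNOT3-1 and shCNOT3-2, against 0.04 in shNTC. ZNF26 read 221 and 349 with DOX, against 405 and 424 without, and in shNTC 489 with and 503 without. ZNF140, a KRAB repressor, read 403 and 355 against 583 and 456, and in shNTC 452 and 456. ZNF268 read 358 and 295 against 451 and 466, and in shNTC 422 and 391. In these 3 genes the knockdown arrays with DOX were the lowest, and of the whole run ZNF605 and ZNF26 had an unadjusted p under 0.05 in limma (0.0386 for ZNF26).

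The largest such run by members, from ZNF283 to ZNF180 on chromosome 19, had 12 of 16 members below 0 in both hairpins and 0 above. Its medians were -0.39 and -0.56 against -0.08 in shNTC, and ZNF180 and ZNF230 had an unadjusted p under 0.05. ZNF284 of this run gave 0.35 and -3.33 and ZNF112 -0.061 and -1.44, each with an intensity under 63 on the shCNOT3-2 array with DOX (12.8 and 58.3). ZNF224, a KRAB repressor, read 185 and 86.1 with DOX, against 197 and 139 without, and in shNTC 233 with and 128 without, and its 3 dimmer sets ranged from -0.57 to 0.66 in shCNOT3-1 and from -1.18 to 0.011 in shCNOT3-2. The run from ZNF565 to ZNF793 had 7 of 11 members below and 2 above, with ZNF565, ZNF566 and ZNF529 among those below, and the run from ZNF530 to ZNF256 had 7 of 10 below and 1 above. In the runs from ZNF606 to ZNF8 on chromosome 19 and from ZNF786 to ZNF746 on chromosome 7, mean hairpin changes had medians of -0.05 and -0.08. Genes of a run are related in sequence, so their probe sets may share targets, and they are not independent of each other.

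**Figure D5:**
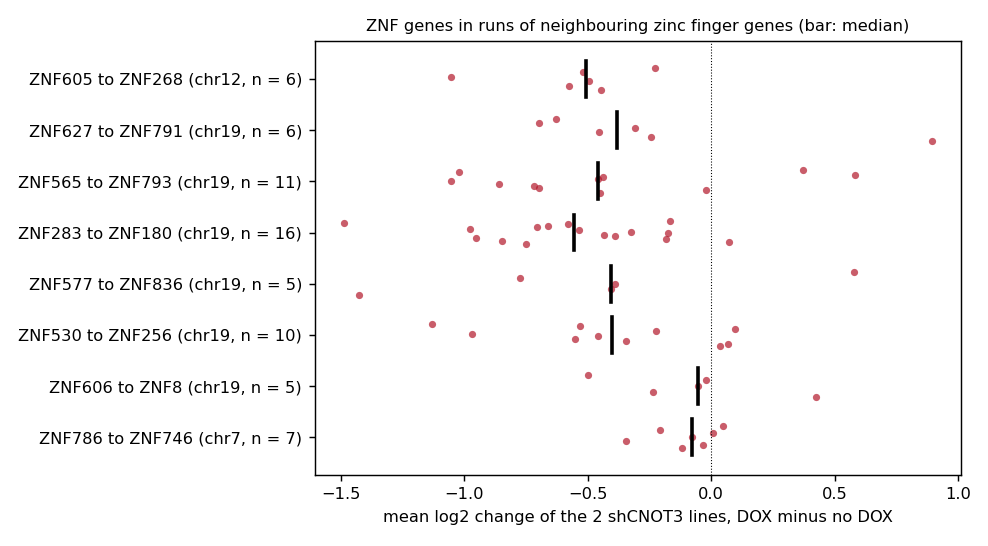
Mean log2 change of the 2 shCNOT3 lines (x axis) for each ZNF gene in the 8 runs of neighbouring zinc finger genes with at least 5 members (rows; black bar, median). The medians of 6 runs lie between -0.56 and -0.38 and those of 2 near 0, at -0.05 and -0.08. One of the 6, from ZNF627 to ZNF791, had medians of 0.08 in shCNOT3-1 and -0.64 in shCNOT3-2. Of its 6 members 2 were below 0 in both hairpins, 1 was above and 3 were split.

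Other families with C2H2 fingers gave mixed values. Of 31 ZBTB genes, which pair fingers with a BTB domain, 22 were below 0 in both hairpins and 4 above (71.0% and 12.9%). These shares were 26.9% and 33.2% over all tested genes, and 45.7% and 15.7% over ZNF genes. The medians of the ZBTB genes were -0.17 and -0.19 against 0.08 in shNTC. ZBTB41 was the only gene of these lists to pass in limma (0 higher and 1 lower). It read 378 and 443 with DOX in shCNOT3-1 and shCNOT3-2, against 1198 and 1406 without, and in shNTC 1004 with and 1095 without, and it fell by 1.66 on the log2 scale (adjusted p = 0.0202). ZFP genes had 7 of 11 below and 1 above. In contrast, ZSCAN genes, whose SCAN box lets such proteins pair, had 4 of 13 below and 6 above (30.8% and 46.2%), with medians of 0.23 and 0.30. ZKSCAN genes had 3 of 6 below and 2 above (50% and 33.3%). KLF and SP genes, which bind GC boxes, had 6 of 21 below and 7 above (28.6% and 33.3%). Transcription factors with no C2H2 fingers had 26 of 109 below and 39 above, near the shares of all genes.

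The corepressors with which KRAB proteins work were measured in full. Of 19, 10 were below 0 in both hairpins and 3 above, with medians of -0.11 and -0.11 against 0.02 in shNTC, and none passed in limma (2 lower and 1 higher at an unadjusted p under 0.05). These are 10.5% and 5.26% of the list, against 7.1% and 7.5% of all genes. HDAC1, a histone deacetylase, read 2748 and 2474 with DOX in shCNOT3-1 and shCNOT3-2, against 4194 and 3673 without (mean log2 change -0.59, adjusted p = 0.167), and gave 0.14 in shNTC. The DNA methyltransferase DNMT3B was higher, at 0.96 and 0.63, but also at 0.61 in shNTC.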

How the data were processed

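Each sample's array was deposited as linear intensity per probe set, which the authors computed with MAS5, per the submitters' processing notes. MAS5 settings: not given in the sources used here. Each array's mean after trimming was 500.1, so a change in total mRNA per cell is not visible. Precision is limited by the number of arrays. Of 54675 probe sets, 41097 were listed with 1 gene and 1801 with several, and the rest are unnamed here. Symbols were updated through Entrez identifiers, and all 293 members have the same symbol in the platform annotation. Log2(intensity + 1) was used.

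Genes with a mean of at least 6 entered limma 3.58.1 (R 4.3.3) with an intensity trend, 2-sided, with Benjamini-Hochberg adjustment. The line entered as a block, since the labels show each line with and without DOX, beside a knockdown term (2 residual degrees of freedom), and a second model added DOX (1 residual degree of freedom). The residual of the first model holds the DOX change of shNTC and the difference between the hairpins, so its p is not a test against shNTC. The median prior degrees of freedom, taken from all tested genes, were 7.65 and 8.48 in the 2 models. The members and lists were chosen with earlier results of these data known. On simulated data of 12569 genes, limma found 29.8% of 2-fold and 83.8% of 4-fold knockdown changes, with 6.75% of its calls false. The simulated arrays had independent noise, no line or DOX effect and the same change in both hairpins. These rates therefore need not hold for the real arrays. Named members were the 12 lowest and 8 highest by the smaller hairpin change, the 4 most opposite, the 4 highest and 4 lowest in shNTC, the 5 brightest, those at the level limit and the 5 with the lowest p. Of each other list, genes were named from its 2 lowest and 2 highest. Members with described roles and those of neighbouring runs were named after their values were seen. Alternatives covered scaling, the added constant, the level minimum, the probe set, the prior, the block, each line and the symbols. Python 3.11.15 with matplotlib 3.10.9 served for tables and plots.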

Additional observations from a re-analysis of the deposited data

Results flagged for a closer look

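The median log2 change of the ZNF genes with DOX was below 0 in both shCNOT3 lines (-0.094 and -0.24) and above 0 in shNTC (0.053), and its median change beyond shNTC was -0.23 on the log2 scale. The difference of these medians was not tested. For single members it was, with an adjusted p of 0.284 or above in limma.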

How the results depend on the processing

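The median DOX changes of the members kept their sign in shCNOT3-1, shCNOT3-2 and shNTC under every alternative of scaling, added constant, level minimum, probe set and symbols that was run, and the count below 0 in both hairpins stayed within 1.5 times. The count above 0 in both was 75 with no level minimum, where 425 genes are members. With no replicate block for the line, 3 members were called lower in limma, ZNF629 (adjusted p = 0.0257), ZNF180 (0.0400) and ZNF678 (0.0443), and under all 13 other alternatives 0 were called in either direction. Leaving out 1 line at a time, the members lower at an unadjusted p under 0.05 numbered 13 to 44 and those higher 4 to 10, and the median change beyond shNTC was -0.26 to -0.13, the smallest shift being without shCNOT3-2. With a hairpin left out, counts in both hairpins cannot be formed. Among 40 named members, 23 kept direction and call under all alternatives. ZNF107 reversed to 0.17 with the mean of its probe sets and to 1.17 with plain _at sets alone, and ZNF664 to 0.065 with the mean. With no replicate block, ZNF311 gave -0.32, ZNF358 -0.038, ZNF524 0.15, ZNF579 0.49 and ZNF653 -0.073. ZNF446, near 0, gave -0.0070 with median centring and -0.0017 with a constant of 16. Leaving out a line gave -0.19 to 0.16 for ZNF117, -0.27 to 0.077 for ZNF217, -0.026 to 0.0016 for ZNF304, -0.054 to 0.14 for ZNF311, -0.70 to 0.097 for ZNF316, -0.74 to 1.69 for ZNF358, -1.75 to 1.11 for ZNF408, -2.13 to 1.03 for ZNF416, -0.28 to 0.28 for ZNF446, -0.61 to 0.12 for ZNF490, -0.58 to 0.37 for ZNF524 and -0.73 to 0.87 for ZNF653, each reversing because its hairpins were opposite. With plain _at sets alone, ZNF107 was read from its second probe set, which gave 1.78 and 0.56 in the hairpins. The cause of the other reversals was not tested.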
